A study of Mus musculus with 6 samples.

Results

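The major urinary protein (Mup) genes are a mouse family of secreted carrier proteins, and 7 of them are described here: Mup1, Mup2, Mup3, Mup7, Mup12, Mup20 and Mup21. They were chosen by symbol, with the diet difference of these same libraries already known, so their levels and diet differences are a description and carry no test. The count tables hold 24982 gene rows, of which 21 are Mup genes: the 7 members and 14 others. The 6 sequenced liver polyA RNA samples came from male C57BL/6NJ mice: 3 kept on a high fat diet with sugar water (labelled high fat - high sugar, HFHS here) and 3 on chow, for 54 weeks. The labels name no genetic change in either group and do not say whether each sample came from its own animal, so every p-value below measures the spread between these samples.

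Major urinary proteins are lipocalins, small barrel-shaped proteins that hold hydrophobic molecules in a central pocket. In mice the liver makes them in large amounts, more in males than in females, and the kidney passes them into urine, where they bind and slowly release volatile pheromones. The family lies in 1 cluster that holds a group of near-identical central copies and a few divergent peripheral copies. Its transcription in liver is known to depend on pulses of growth hormone, carried by the growth hormone receptor to the transcription factor Stat5b. Circulating Mup1 has also been described in mice as a regulator of glucose and lipid metabolism, and Mup20 is known as darcin, the male pheromone protein that attracts females.

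On the GRCm38 assembly, which is the mm10 build named in the submitters' processing notes, all 21 Mup genes lay between the ends of chr4:59956804-62150863, and 20 of them were on the minus strand. Mup7 (chr4:60066469-60070475), Mup2 (chr4:60135932-60154289), Mup1 (chr4:60498012-60501960) and Mup12 (chr4:60737383-60741326) lay inside the array of central copies. Mup20 (chr4:62050234-62054158), Mup3 (chr4:62083476-62087342) and Mup21 (chr4:62147932-62150863) lay at its far end. In the GENCODE M21 annotation each member transcript had 7 exons, except that of Mup21 with 6. Here central means a coding sequence at least 95% identical to that of Mup1, a grouping that was added after the levels had been seen. It put 15 genes, 4 of them members, in the central group and 6 genes, 3 of them members, in the peripheral group. Central genes were 98.3% to 99.8% identical to each other in coding sequence, peripheral genes 82.4% to 94.7% identical to each other, and central and peripheral genes 82.3% to 91.3% identical.

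A 60-base stretch of coding exon was picked as the stretch where the members differ most, with 20 positions that differ among them. It is therefore not typical of the coding sequence, over which Mup3 was 82.7% identical to Mup1. The stretch is given for each member 5′ to 3′ on the minus strand of GRCm38, from GENCODE M21, with capitals at the bases that differ from Mup1.
Mup1, chr4:60500440-60500499: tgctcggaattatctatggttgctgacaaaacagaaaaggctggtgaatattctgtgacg
Mup2, chr4:60138388-60138447: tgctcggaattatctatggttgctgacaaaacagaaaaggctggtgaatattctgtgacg
Mup12, chr4:60739806-60739865: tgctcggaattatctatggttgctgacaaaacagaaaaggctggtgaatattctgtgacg
Mup7, chr4:60068902-60068961: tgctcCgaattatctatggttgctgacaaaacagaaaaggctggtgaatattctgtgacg
Mup20, chr4:62052637-62052696: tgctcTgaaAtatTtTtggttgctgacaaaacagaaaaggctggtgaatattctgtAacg
Mup21, chr4:62149355-62149414: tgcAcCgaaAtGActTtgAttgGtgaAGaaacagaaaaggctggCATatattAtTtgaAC
Mup3, chr4:62085960-62086019: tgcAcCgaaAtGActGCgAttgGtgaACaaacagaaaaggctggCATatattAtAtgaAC
The stretches of Mup1, Mup2 and Mup12 were identical, that of Mup7 differed at 1 base, that of Mup20 at 5, that of Mup21 at 17 and that of Mup3 at 18. Over the whole coding sequence, with positions counted from 1 at the A of the start codon and the base of Mup1 written first, Mup12 differed from Mup1 only by G25T and C42G. Mup2 differed from Mup1 by G25T, G91C and A472G, and Mup7 by G25T, A30G, C42G, A138G, T220G and G249C.

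These differences set how a read can be assigned. Of the 100-base windows of each annotated transcript, 12.8% in Mup1, 2.66% in Mup2, 12.9% in Mup7 and 22.5% in Mup12 occurred in no other annotated gene. The share was 97.1% in Mup3, 95.5% in Mup21 and 61.2% in Mup20, whose other 38.8% also occurred in the pseudogene Mup-ps19. No source used here gives the read counter or how it treated reads that match several genes. How reads shared by Mup20 and Mup-ps19 were counted is therefore uncertain, and so is how counts were divided among the central copies. The sums over all Mup rows and over the central rows, given beside the single genes, do not depend on that division among the rows summed, but reads that were left uncounted are missing from them too.

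The promoters of the central and peripheral members were alike in layout. RefSeq promoters of GRCm38.p6, which cover 250 bases before and 50 after the start of a gene, were found for 4 members, and a stretch of each is shown because it carries the same 6-base motif at both ends. Each is written 5′ to 3′ on the minus strand, with the motif ATCAAT in capitals.
Mup7, chr4:60070476-60070565: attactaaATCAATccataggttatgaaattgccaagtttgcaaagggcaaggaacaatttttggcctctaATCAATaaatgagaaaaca
Mup2, chr4:60139991-60140080: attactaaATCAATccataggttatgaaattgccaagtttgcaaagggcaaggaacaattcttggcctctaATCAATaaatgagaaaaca
Mup3, chr4:62087399-62087487: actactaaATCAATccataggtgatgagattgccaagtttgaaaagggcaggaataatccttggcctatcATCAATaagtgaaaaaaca
Mup21, chr4:62150917-62151005: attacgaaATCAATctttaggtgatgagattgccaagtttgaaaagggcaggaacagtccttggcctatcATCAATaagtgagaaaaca
Read on both strands, ATCAAT occurred at least 2 times in 14 of the 14 Mup promoters in the table, while 7.54% of 32851 RefSeq promoters of the same length held it at all and 0.694% held it at least 2 times. The motif TATATAA, a form of the core promoter box that places the start of transcription, occurred in 13 of the 14 Mup promoters and in 3.24% of all promoters. The Stat5-type motif TTCNNNGAA occurred in 0 of the 14 and in 8.30% of all, and TTGCNNAA, a C/EBP-type motif, in 0 of the 14 and in 10.8% of all. No ATCAAT overlapped a TATATAA in the Mup promoters, and a match or its absence describes the letters of this window only.

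The libraries held between 16565335 and 20585366 gene counts, so 3 counts, taken as the limit of detection, stood for 0.115 to 0.202 CPM (a count divided by the library's size, with sizes scaled by TMM, which aligns libraries on the bulk of their genes). HFHS replicate 2 stood apart from the other HFHS libraries. Its counts differed from those of HFHS replicates 1 and 3 with a chi-square per gene of 169.3 and 119.9, against 50.1 between replicates 1 and 3. All 6 hepatocyte markers were lowest there, and 1 of them was lower in HFHS by edgeR. Their summed level ranged over 33094 to 87485 CPM in HFHS and 88077 to 108340 CPM in chow. Albumin (Alb) made up most of that sum, with 24157 to 71043 CPM in HFHS and a mean of 78879 CPM in chow. Another of the markers, Ass1, was at the limit of detection in HFHS replicate 2, with 0.115 CPM. Of 20 secreted hepatocyte proteins described below, 16 were lowest in HFHS replicate 2 and 2, Ahsg and Hpx, were highest there. Summed levels of the other marker lists were 543 to 1023 CPM in HFHS and 181 to 240 CPM in chow for macrophages, with 6 of 6 markers higher in HFHS by edgeR. They were 485 to 965 CPM in HFHS and 169 to 224 CPM in chow for stellate cells (6 of 6 higher), 170 to 287 CPM in HFHS and 23.8 to 43.7 CPM in chow for cholangiocytes (5 of 6 higher), and 228 to 294 CPM in HFHS and 152 to 192 CPM in chow for endothelial cells (4 of 6 higher). The cholangiocyte sum was mostly Spp1, with 190, 263 and 161 CPM in HFHS and 39.5, 34.2 and 18.2 CPM in chow. No marker was at 0 in all chow libraries. In bulk tissue, fewer cells of a type and less RNA per cell cannot be told apart. The log2 fold changes of the Mup genes are given with and without HFHS replicate 2, and the part of cell make-up in them was not tested. Chow replicate 2 also stood apart in its group, with a chi-square per gene of 47.3 and 34.4 against chow replicates 1 and 3, which differed from each other by 19.2.

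Liver of both diets held much Mup RNA, and its total did not separate the diets. The 21 Mup rows summed to 14974, 2885 and 14155 CPM in HFHS replicates 1, 2 and 3, against 7027, 17565 and 9087 CPM in chow replicates 1, 2 and 3. The groups overlapped: HFHS replicate 2 was the lowest of the 6 libraries, chow replicate 2 the highest, and the other 2 HFHS libraries lay above the other 2 chow libraries. The total made up 1.53%, 0.364% and 1.44% of gene counts in HFHS and 0.632%, 1.66% and 0.815% in chow. The log2 fold change of the sum, HFHS over chow, was -0.07 ± 0.63 (SE, n = 3 each). It was 0.38 without HFHS replicate 2, 0.40 without chow replicate 2 and 0.10 when scaled by library size alone, so it has no settled direction. The 7 members carried 98.2% to 99.95% of Mup counts in HFHS and 95.9% to 98.6% in chow, and their own sum had a log2 fold change of -0.05 ± 0.62, and of 0.40 without HFHS replicate 2.

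The make-up of that total differed between the diets. Mup20 supplied 70.2%, 85.9% and 51.3% of all Mup counts in HFHS replicates 1, 2 and 3, against 19.3%, 25.9% and 20.8% in chow. Every HFHS library lay above every chow library. The mean share was 69.1% ± 17.3 in HFHS and 22.0% ± 3.45 in chow (SD, n = 3 each), a difference of 47.1 percentage points that ranged over 38.7 to 56.0 when each library was left out in turn. Mup3 supplied 26.7%, 13.8% and 43.7% in HFHS and 70.0%, 51.3% and 59.8% in chow, also without overlap. Central copies together supplied 2.46%, 0.0587% and 4.26% in HFHS and 10.1%, 21.8% and 18.7% in chow. That share was below every chow value in each HFHS library. Shares of one total are tied to each other, so a higher Mup20 share lowers the rest by arithmetic, and levels follow for each gene.

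**Figure D1:**
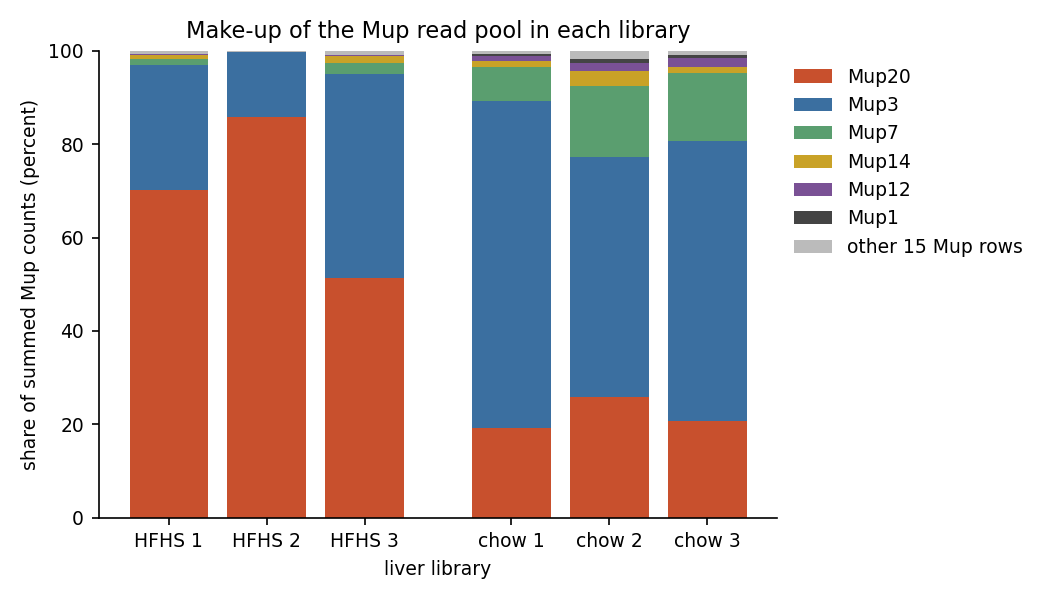
Share of the summed Mup counts, in percent, taken by each Mup gene in the 3 HFHS and 3 chow liver libraries, 1 stacked bar per library. Mup20 takes 51.3% to 85.9% of the bar in HFHS and 19.3% to 25.9% in chow, while Mup3 takes 13.8% to 43.7% in HFHS and 51.3% to 70.0% in chow.

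Among the peripheral members, Mup20 (darcin) was the one with a higher mean in HFHS. It had 10508, 2477 and 7259 CPM in HFHS replicates 1, 2 and 3, against 1356, 4544 and 1888 CPM in chow. HFHS replicates 1 and 3 lay above all chow libraries and HFHS replicate 2 lay above chow replicates 1 and 3 but below chow replicate 2, so the groups overlapped. The mean was 6748 ± 4040 CPM in HFHS and 2596 ± 1708 CPM in chow (SD, n = 3 each), a log2 fold change of 1.38 ± 0.63 (SE). It was 1.78 without HFHS replicate 2, and between 0.90 and 2.05 over all single-library omissions. Set against albumin (Alb), the main plasma protein made by hepatocytes, Mup20 had 14.8, 10.3 and 14.4 counts per 100 Alb counts in HFHS and 1.74, 6.58 and 2.11 in chow. On that scale the groups did not overlap. Alb itself had a log2 fold change of -0.70 ± 0.42 (SE). It was lowest in HFHS replicate 2, at 24157 CPM against 71043 and 50307 CPM in HFHS replicates 1 and 3. That low Alb level raises the value of HFHS replicate 2 on this scale, while in CPM the groups overlapped.

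Mup3, the most abundant peripheral copy in chow, had 3999, 399 and 6184 CPM in HFHS and 4916, 9009 and 5437 CPM in chow. HFHS replicate 2 was the lowest library by far, HFHS replicate 3 lay inside the chow range, and the groups overlapped. The log2 fold change was -0.87 ± 0.84 (SE, n = 3 each) and -0.34 without HFHS replicate 2, and it was -1.56 without HFHS replicate 3. Per 100 Alb counts it had 5.63, 1.65 and 12.3 counts in HFHS and 6.31, 13.0 and 6.07 in chow. The ratio of Mup20 to Mup3 counts, which no scaling of the libraries alters, was 2.63, 6.21 and 1.17 in HFHS and 0.276, 0.504 and 0.347 in chow. Mup20 thus had more counts than Mup3 in all 3 HFHS libraries and fewer in all 3 chow libraries.

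Mup21, the closest relative of Mup3 with 94.7% coding identity, was a minor transcript. It had 95.6, 7.31 and 104 CPM in HFHS and 37.9, 170 and 54.2 CPM in chow, with chow replicate 2 highest and HFHS replicate 2 lowest. The log2 fold change was -0.35 ± 0.98 (SE, n = 3 each), and its sign turned to 0.19 without HFHS replicate 2 and to 0.57 without chow replicate 2.

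**Figure D2:**
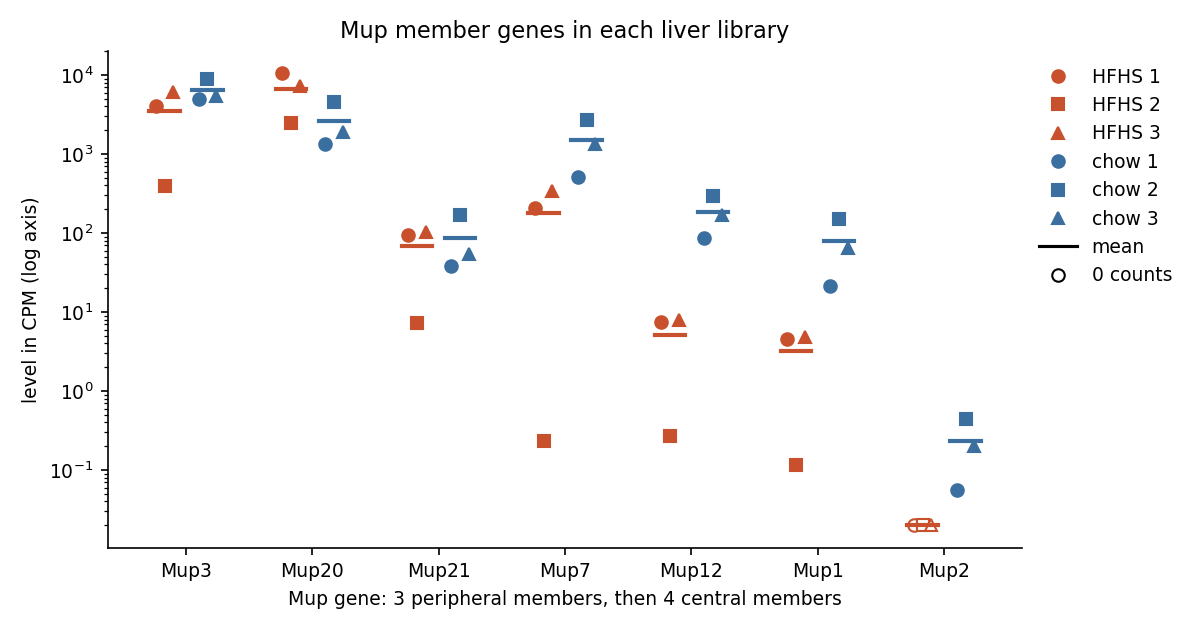
Level of each member in CPM on a log axis, with 1 point per library (circle, square and triangle for replicates 1, 2 and 3), HFHS left of chow for each gene, and a bar at the mean; open points stand for 0 counts and are drawn at the bottom of the axis. The HFHS points of Mup7, Mup12, Mup1 and Mup2 lie below all chow points, and those of Mup20, Mup3 and Mup21 overlap with chow.

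The central members were lower in HFHS than in chow in every library. Mup7, the most abundant central copy, had 205, 0.231 and 338 CPM in HFHS replicates 1, 2 and 3, against 508, 2676 and 1329 CPM in chow. HFHS replicate 2 was close to the limit of detection with 6 counts, and the groups did not overlap. The log2 fold change was -3.05 ± 1.75 (SE, n = 3 each). It was -2.47 without HFHS replicate 2, -3.88 without HFHS replicate 3, -2.35 without chow replicate 2 and -5.68 by limma-voom. As a share of all Mup counts, Mup7 took 1.37%, 0.00800% and 2.39% in HFHS and 7.23%, 15.2% and 14.6% in chow.

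Mup12, which differs from Mup1 at 2 coding bases, had 7.38, 0.269 and 7.87 CPM in HFHS and 85.9, 295 and 170 CPM in chow. All HFHS libraries were below the lowest chow library by a wide margin, with 143, 7 and 141 counts in HFHS and 1545, 5360 and 2520 counts in chow. The mean was 5.17 ± 4.26 CPM in HFHS and 183 ± 105 CPM in chow (SD, n = 3 each), a log2 fold change of -5.18 ± 1.08 (SE). It was -4.58 without HFHS replicate 2 and -6.27 by limma-voom.

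Mup1, the copy studied as a metabolic regulator, had 4.59, 0.115 and 4.80 CPM in HFHS and 21.1, 152 and 65.5 CPM in chow. HFHS replicate 2 held 3 counts and the groups did not overlap. The log2 fold change was -4.69 ± 1.16 (SE, n = 3 each) and -4.07 without HFHS replicate 2. It was -3.82 without chow replicate 2 and -5.65 by limma-voom. Mup2 had 0, 0 and 0 counts in HFHS and 1, 8 and 3 counts in chow. Taking 3 counts over the whole HFHS group as its limit, and the chow counts as exact, it was at least 4.96-fold lower in HFHS. That figure was 2.57-fold without chow replicate 2 and 2.92-fold without HFHS replicate 2. It leaves out counting error in chow, where replicates 1 and 3 did not exceed the limit of 3 counts set for a single library. None of its 50-base windows is unique to Mup2, so its few counts are the least certain of the family.

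Summed over all 15 central rows, the level was 369, 1.69 and 603 CPM in HFHS and 711, 3825 and 1702 CPM in chow, without overlap. The log2 fold change of this sum was -2.68 ± 1.59 (SE, n = 3 each), and it was -2.09 without HFHS replicate 2. It was -3.49 without HFHS replicate 3, -1.90 without chow replicate 2 and -4.34 by limma-voom. The 6 peripheral rows summed to 14605, 2883 and 13552 CPM in HFHS and 6316, 13740 and 7386 CPM in chow, a log2 fold change of 0.18 ± 0.60 with overlapping groups, which was 0.63 without HFHS replicate 2, ranged down to -0.15 without HFHS replicate 1 and was -0.01 by limma-voom, so it has no settled direction either. Per 100 Alb counts the central sum was 0.519, 0.00701 and 1.20 in HFHS and 0.912, 5.54 and 1.90 in chow. On that scale HFHS replicate 3 lay above chow replicate 1 and the groups overlapped.

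Of the 7 members, 6 passed the filter on low counts (Mup2 did not) and 2, Mup1 and Mup12, were lower in HFHS at an adjusted p of 0.05 by edgeR's quasi-likelihood test. Over all 12949 tested genes, edgeR called 3.61% lower and 11.0% higher. Of the same genes DESeq2 called 974 lower and 1811 higher, and limma-voom 373 lower and 997 higher. These are the backgrounds for the calls in each list below. Genes at an unadjusted p under 0.05 were not counted over all genes, so the unadjusted counts below have no background. The members were chosen on this contrast, so nothing is read from their count. All HFHS libraries lay below all chow libraries for 4 members (Mup1, Mup7 and Mup12 among the tested, and Mup2), a pattern shown by 18.0% of all tested genes, and 39.5% of them had groups that did not overlap in either direction. The call of Mup1 held in 3 and that of Mup12 in 6 of 13 other settings. Leaving out chow replicate 3 left 4 genes called higher and 2 called lower in the whole table, and without that library none of the genes named as called here or below passed. The count of genes called lower was 293 without HFHS replicate 1, 772 without HFHS replicate 3, 177 without chow replicate 1 and 113 without chow replicate 2. The count called higher was 762 without chow replicate 1 and 345 without chow replicate 2.

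Per kilobase of transcript, the order of mean levels in HFHS was Mup20 (7271 CPM per kb), Mup3 (3585), Mup7 (195), Mup21 (102), Mup12 (5.59), Mup1 (3.42) and Mup2 (0). In chow the order was Mup3 (6559 CPM per kb), Mup20 (2797), Mup7 (1623), Mup12 (198), Mup21 (129), Mup1 (85.6) and Mup2 (0.251). In HFHS the library values overlapped between Mup20 and Mup3, between Mup7 and Mup21, and between Mup12 and Mup1. In chow they overlapped between Mup20 and Mup7, between Mup12 and Mup21, and between Mup21 and Mup1. Compared within each library, these chow pairs kept their order in every chow library. In every HFHS library Mup20 was above Mup3 and Mup12 above Mup1, but Mup7 was below Mup21 in HFHS replicate 2. The library values of the other neighbours in each order did not overlap, though the gap between Mup3 and Mup20 in chow was narrow. The lowest Mup3 value there was 4996 CPM per kb and the highest Mup20 value 4896 CPM per kb. Levels of the central copies also depend on how shared reads were counted, and so does that of Mup20, which shares windows with Mup-ps19.

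The other Mup genes were measured by the same fit, with p-values adjusted over all tested genes, and 0 of the 7 that passed the filter were called by edgeR. By edgeR 1 had an unadjusted p under 0.05, DESeq2 called 1 and limma-voom called 0. All 7 fold changes were negative. Mup5, a peripheral copy known from salivary glands, came nearest: it had 0.878, 0.0769 and 1.51 CPM in HFHS and 2.95, 7.20 and 3.57 CPM in chow. Its groups did not overlap, and HFHS replicate 2 was below the limit of detection. Its log2 fold change was -2.54 ± 0.78 (SE) with an adjusted p of 0.0705 by edgeR, and DESeq2 gave it an adjusted p of 0.00591. By edgeR it also passed without HFHS replicate 2 (-1.94, adjusted p of 0.0465) and without HFHS replicate 3 (-3.35, adjusted p of 0.0491). Over all settings, DESeq2 and limma-voom included, its adjusted p ranged over 0.00591 to 0.183. The log2 fold changes of the rest were -1.69 ± 1.01 for Mup6, -0.74 ± 0.95 for Mup8, -2.18 ± 1.61 for Mup9, -1.71 ± 0.89 for Mup13, -1.10 ± 1.52 for Mup14 and -1.65 ± 1.16 for Mup15 (SE), with adjusted p of 0.233 to 0.662 by edgeR. Without HFHS replicate 2 these were -1.09 for Mup6, -0.13 for Mup8, -1.58 for Mup9, -1.09 for Mup13, -0.51 for Mup14 and -1.05 for Mup15. Without chow replicate 2 those of Mup6, Mup13 and Mup15 were -0.71, -1.10 and -0.25, and the signs of Mup8, Mup9 and Mup14 turned, to 0.13, 0.55 and 0.21. Mup4, Mup10, Mup11 and Mup17 had 11, 5, 9 and 2 counts in HFHS and 25, 7, 41 and 8 counts in chow and were not tested, and Mup16, Mup18 and Mup19 had 0 in every library.

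The central copies differed from each other in the size of the diet difference. Mup14, the second most abundant central copy in HFHS, had 137, 0.808 and 230 CPM in HFHS and 85.9, 576 and 124 CPM in chow, with overlapping groups. Relative to it, Mup12 had 0.0540, 0.333 and 0.0343 counts per Mup14 count in HFHS and 1.00, 0.512 and 1.37 in chow. Mup1 had 0.0336, 0.143 and 0.0209 in HFHS and 0.246, 0.263 and 0.528 in chow, and Mup7 had 1.50, 0.286 and 1.47 in HFHS and 5.92, 4.65 and 10.7 in chow. Each of these 3 ratios was lower in every HFHS library than in every chow library, and the HFHS replicate 2 ratios rest on 3 to 7 counts in the numerator. The 3 ratios share Mup14 as denominator and are not separate observations. By level, 18.0% of all tested genes were lower in every HFHS library than in every chow library. How reads shared between these copies were counted cannot be told apart from a difference between the genes in level.

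**Figure D3:**
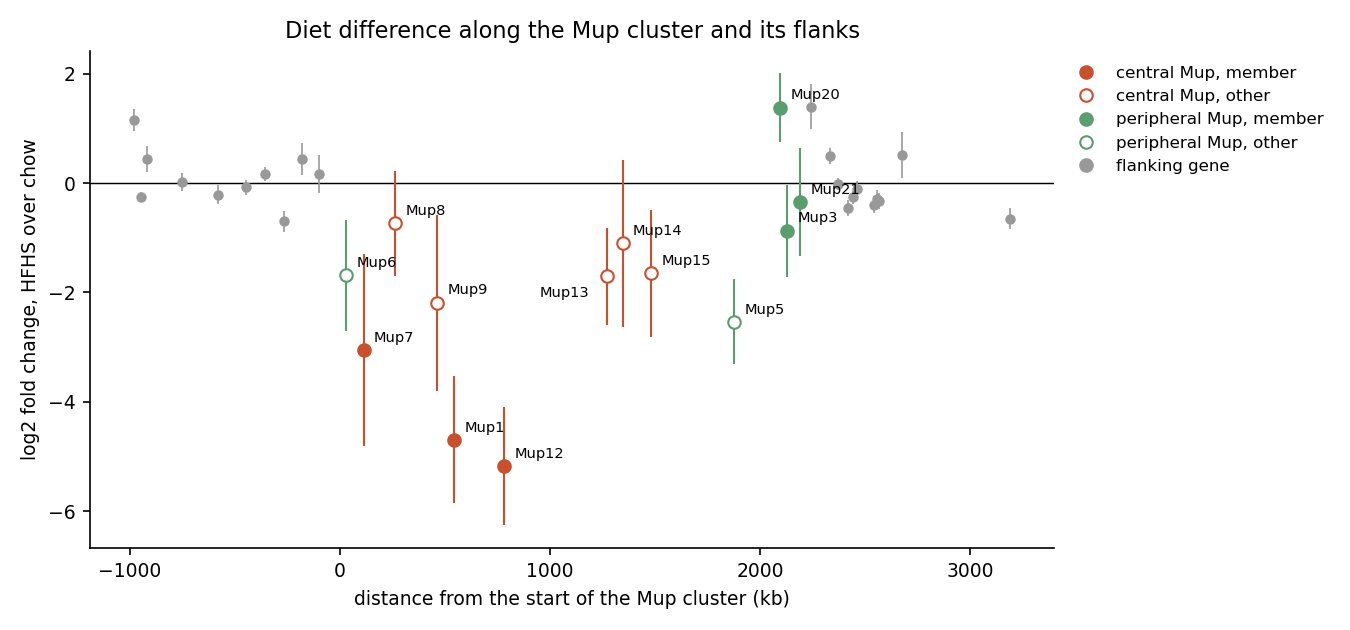
Log2 fold change, HFHS over chow, with its SE, of each tested Mup gene and flanking gene against distance in kb from the start of the Mup cluster; filled points are members, colours mark central, peripheral and flanking genes. Mup12 and Mup1 are lowest at -5.18 and -4.69, Mup20 is the one Mup gene above 0 at 1.38, and the flanking genes have a median of -0.08.

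The diet difference of the Mup genes was set beside that of their neighbours. No other protein-coding gene of the RefSeq table lay between the outermost Mup genes. Of 29 protein-coding genes within 1 Mb on either side, 28 had a row and 21 were tested, of which 1 was called higher by edgeR and 0 lower. At an unadjusted p under 0.05 edgeR had 5 lower, DESeq2 called 3 lower and limma-voom 0. The one called was Ptgr1, an enzyme that reduces prostaglandins and leukotrienes, with 5.78, 5.88 and 4.58 CPM in HFHS and 2.39, 2.42 and 2.49 CPM in chow. Its log2 fold change was 1.15 ± 0.20 (SE, edgeR adjusted p = 0.0148), and the call was also lost without chow replicate 2. E130308A19Rik (-0.70 ± 0.20), the zinc finger gene Zfp37 (1.39 ± 0.41) and Ambp (-0.65 ± 0.19), which encodes a plasma lipocalin, had adjusted p of 0.0514 to 0.0604 by edgeR. The median over the tested flanking genes was -0.08, against -0.02 over all tested genes.

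Genes of growth hormone and Stat5 signalling were described by a list of 15 genes, 14 of which were tested. The list also holds target and feedback genes, and Lepr and Insr, receptors of other hormones. Its counts and median therefore do not describe the pathway upstream of the Mup genes alone. Lepr and Stat5b were the 2 called by edgeR. Lepr, the leptin receptor, which also signals through Stat proteins, had 42.9, 76.1 and 29.9 CPM in HFHS and 2.17, 2.80 and 1.62 CPM in chow, with no overlap. Its log2 fold change was 4.49 ± 0.42 (SE, edgeR adjusted p = 0.00754). Stat5b, the transcription factor that carries the growth hormone signal, had 48.8, 49.4 and 41.5 CPM in HFHS and 57.9, 63.8 and 64.3 CPM in chow. It fell by 0.41 ± 0.11 on the log2 scale (SE, edgeR adjusted p = 0.0474), a call that held in 4 of 13 other settings and was lost when any one library was left out. By DESeq2 5 of the 14 were lower, and by limma-voom 0.

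Ghr, the growth hormone receptor, had 576, 331 and 602 CPM in HFHS and 825, 881 and 852 CPM in chow, without overlap (log2 fold change -0.76 ± 0.25, edgeR adjusted p = 0.0766). Igfals, which carries insulin-like growth factors in blood, had 60.1, 68.2 and 108 CPM in HFHS and 136, 111 and 141 CPM in chow (-0.72 ± 0.23, edgeR adjusted p = 0.0737). Neither passed the threshold, and HFHS replicate 2 was the lowest library for Ghr but not for Igfals. The direct Stat5 targets Socs2 and Cish, which feed back on the receptor, had log2 fold changes of 0.63 ± 0.61 and 0.03 ± 0.72. Socs2 had 14.4, 27.1 and 47.3 CPM in HFHS and 35.1, 12.2 and 9.83 CPM in chow. Cish had 14.1, 15.2 and 19.2 CPM in HFHS and 35.5, 5.77 and 6.06 CPM in chow. For both genes the groups overlapped through chow replicate 1, while chow replicates 2 and 3 lay below every HFHS library. The median of the tested list was 0.04.

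Of 22 liver transcription factors listed, 21 were tested and 0 were called by edgeR, with 9 at an unadjusted p under 0.05, 5 called lower by DESeq2 and 0 called by limma-voom. Bcl6, a repressor that competes with Stat5 at female-biased liver genes in mice, had 13.5, 13.9 and 11.9 CPM in HFHS and 17.2, 93.9 and 87.2 CPM in chow (-2.33 ± 0.60, edgeR adjusted p = 0.0514). All HFHS libraries were lower, although chow replicate 1 was close to them. Hnf4a, the nuclear receptor that sets hepatocyte gene expression, had 497, 417 and 401 CPM in HFHS and 632, 584 and 721 CPM in chow (-0.56 ± 0.17, edgeR adjusted p = 0.0670). Zbtb20 (-0.69 ± 0.21), a repressor of alpha-fetoprotein, and Zhx2 (-0.27 ± 0.11), a homeobox factor of adult liver, also missed the threshold. Cux2, a factor of female liver, had 0.310, 8.92 and 0.558 CPM in HFHS and 0.445, 0.275 and 0.404 CPM in chow and was not tested, with HFHS replicate 2 alone high.

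Other genes that are higher in male than in female mouse liver were listed, since the Mup genes belong to that class. Of 17 tested, 0 were called higher and 2 lower by edgeR: Susd4, a complement regulator, at -3.40 ± 0.61 (edgeR adjusted p = 0.0198), and Nat8, an acetyltransferase, at -1.34 ± 0.31 (edgeR adjusted p = 0.0341). None of the 17 was higher at an unadjusted p under 0.05 or by DESeq2 or limma-voom, and DESeq2 called 5 lower. The call of Susd4 was also lost without chow replicate 2 and with the replicate number as a block, and that of Nat8 without HFHS replicate 1, HFHS replicate 2 or chow replicate 1. The background of lower calls was 3.61% by edgeR, and DESeq2 called 974 of all 12949 tested genes lower. The median of the list was -1.34. Susd4 had 6.92, 1.15 and 5.02 CPM in HFHS and 29.6, 60.6 and 45.5 CPM in chow. Keg1 (-1.25 ± 0.41) and Cyp2u1 (-2.06 ± 0.70) had adjusted p of 0.0802 and 0.0969 by edgeR. The male-biased steroid hydroxylase Cyp2d9 (-0.98 ± 0.43), the fatty acid elongase Elovl3 (-2.07 ± 0.90) and the steroid dehydrogenase Hsd3b5 (-2.93 ± 2.01) did not pass. Hsd3b5 spanned 2.74, 0.0769 and 28.4 CPM in HFHS and 2.67, 222 and 9.09 CPM in chow, with chow replicate 2 far above the rest and overlapping groups. Its level in HFHS replicate 2 was below the limit of detection.

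Of 18 tested genes that are higher in female liver, 1 was called higher and 1 lower by edgeR, with a list median of 0.12. Ntrk2, a neurotrophin receptor, had 53.4, 40.3 and 43.2 CPM in HFHS and 19.1, 5.17 and 7.67 CPM in chow (2.10 ± 0.46, edgeR adjusted p = 0.0308), a call that also failed with no filter on low counts and without chow replicate 2 or any one HFHS library. Cyp2b10, a drug-induced cytochrome, had 0.568, 0.115 and 0.0558 CPM in HFHS and 4.72, 4.56 and 6.66 CPM in chow (-4.43 ± 0.60, edgeR adjusted p = 0.0101), and that call held in 12 of 13 other settings. In HFHS replicates 2 and 3 its level was at or below the limit of detection. The fold changes of Hao2 (-2.16 ± 0.68) and Cyp2b9 (-1.36 ± 1.02) did not pass by edgeR. DESeq2 called 2 of the list lower and 1 higher, and limma-voom 1 in each direction.

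The Mup genes shared an order of libraries that the diet label does not give, a pattern chosen after the values were seen. Of 13 tested Mup rows, 12 were lowest in HFHS replicate 2 and the same number were highest in chow replicate 2. Of all tested genes, 27.8% were lowest in HFHS replicate 2 and 16.8% highest in chow replicate 2. The exception was Mup20, lowest in chow replicate 1 and highest in HFHS replicate 1. Of the 13 rows, 8 are near-identical central copies that can share reads, so the rows are not separate observations. Of the 17 male-biased genes, 14 were lowest in HFHS replicate 2, 14 were highest in chow replicate 2, and 12 were both, which was 70.6% of the list against 7.83% of all tested genes. Of the 18 female-biased genes, 0 were both, 9 were lowest in chow replicate 2 (against 17.7% of all tested genes), and 6 were highest in HFHS replicate 2 (33.3%, against 29.2%, a share near that of all genes). HFHS replicate 2 is also the library in which all 6 hepatocyte markers were lowest, and the part of that in the Mup levels was not tested. Its Alb level was 24157 CPM, against 71043 and 50307 CPM in the other HFHS libraries.

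**Figure D4:**
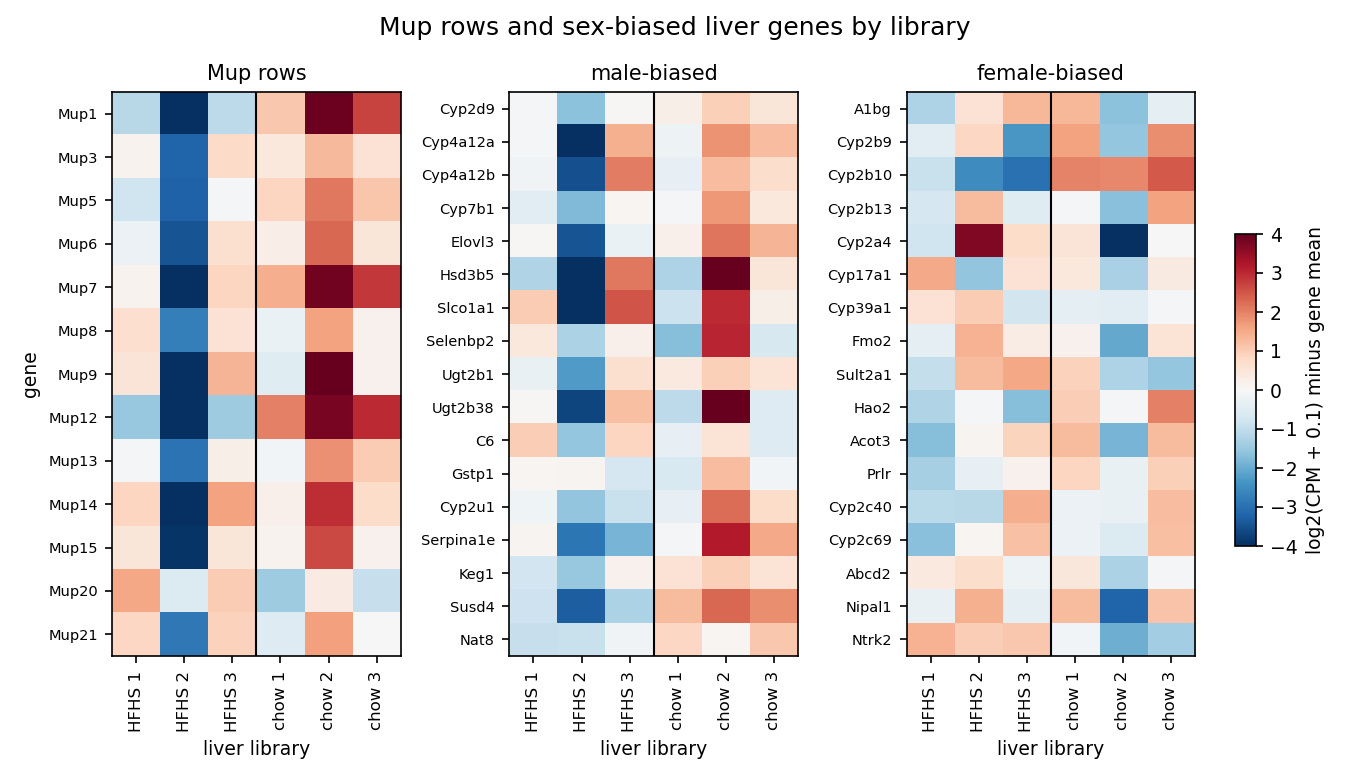
Log2(CPM + 0.1) minus the mean of the gene, for the 13 tested Mup genes, 17 male-biased and 17 of the 18 female-biased liver genes, with the 3 HFHS libraries left of the 3 chow libraries and colours ending at 4 units either side of 0. In the Mup and male-biased panels HFHS replicate 2 is the lowest column (12 of 13 and 14 of 17 genes) and chow replicate 2 the highest (12 of 13 and 14 of 17).

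Related secreted proteins were listed for comparison. Of 10 tested lipocalins outside the Mup family, 0 were called higher and 1 lower by edgeR: Obp2a, an odorant-binding relative, with 0.310, 0.269 and 0.0558 CPM in HFHS and 0.778, 2.42 and 1.62 CPM in chow (-2.84 ± 0.62, edgeR adjusted p = 0.0245). Its call was also lost without chow replicate 2, and its level in HFHS replicate 3 was below the limit of detection. None of the 10 was higher at an unadjusted p under 0.05 or by DESeq2 or limma-voom, and DESeq2 called 4 lower. Lcn2, a lipocalin of the acute phase that binds bacterial iron carriers, had 156, 378 and 91.9 CPM in HFHS and 67.3, 3.08 and 5.11 CPM in chow. Its groups did not overlap, and its log2 fold change of 3.05 ± 1.27 had an adjusted p of 0.158 by edgeR. C8g (-0.77 ± 0.25), a complement subunit, and Apom (-0.60 ± 0.24), a lipoprotein component, did not pass by edgeR.

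Of 20 other abundant secreted hepatocyte proteins, all tested, 0 were called higher and 2 lower by edgeR, both protease inhibitors of the serpin family whose copies are also near-identical. Serpina1c had 1645, 783 and 1531 CPM in HFHS and 2783, 3390 and 3334 CPM in chow (-1.26 ± 0.31, edgeR adjusted p = 0.0343), and its call was lost without HFHS replicate 1 or any one chow library. Serpina1a had 1321, 843 and 1011 CPM in HFHS and 1832, 1798 and 1856 CPM in chow (-0.79 ± 0.22, edgeR adjusted p = 0.0492). The call of Serpina1a held in 4 of 13 other settings. None of the 20 was higher at an unadjusted p under 0.05 or by DESeq2 or limma-voom, and DESeq2 called 8 lower. Ttr, the thyroxine carrier transthyretin (-0.87 ± 0.24), Serpina1d (-1.23 ± 0.38) and Alb (-0.70 ± 0.42) did not pass, and the median of the list was -0.54. Of these 20 genes, 16 were lowest in HFHS replicate 2 (80.0%, against 27.8% of all tested genes), and 5 were also highest in chow replicate 2 (25.0%, against 7.83%).

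The genes whose levels followed the summed Mup level most closely were ranked by Pearson's r of log2 CPM over the 6 libraries, among 10681 genes with a mean count of at least 50. The 8 highest were Ubqln1 (0.988), Abcf2 (0.983), C2cd2l (0.982), Hao1 (0.980), Slco1a1 (0.978), Sirt5 (0.976), Dnase1l3 (0.975) and Ttyh2 (0.972). The 4 lowest were Rbm3 (-0.995), F11r (-0.992), Mgst3 (-0.985) and Nqo1 (-0.984). The 6 points share libraries, depth and scaling, and such values come from a search over all these genes, so they are a description only. Slco1a1, an organic anion transporter of male liver, ranged as widely as the Mup genes, with 114, 0.885 and 323 CPM in HFHS and 30.8, 443 and 66.1 CPM in chow. Nqo1, a quinone reductase, ran opposite, with 8.88, 48.7 and 12.2 CPM in HFHS and 18.1, 8.30 and 18.1 CPM in chow. Ubqln1, a ubiquitin receptor of protein quality control, had a log2 fold change of -0.06 ± 0.14 between the diets (SE, n = 3 each).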

How the data were processed

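Total RNA of frozen liver was enriched for polyA RNA, and a dUTP kit that keeps the strand made the libraries, per the labels' protocols. Per the submitters' processing notes, reads were aligned with STAR to mm10. No source used here gives the counting program, its strand setting or its treatment of reads that match several genes. The deposited values are whole-number counts per gene, not normalised by the authors. Rows for reads outside genes (7.74% to 10.6% of each table) and for ambiguous reads (0.615% to 0.698% in HFHS, 0.766% to 0.862% in chow) were left out.

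Genes were filtered with filterByExpr (minimum count 10) and scaled by TMM, and diet was tested over all 12949 remaining genes with edgeR 4.0.16 (limma 3.58.1, R 4.3.3), a robust quasi-likelihood fit with no covariate and Benjamini-Hochberg adjustment at 0.05. A standard error is the log2 fold change divided by the square root of F. Sums of Mup rows replaced their rows in the same fit. CPM use TMM-scaled library sizes. The fit was tested on simulated counts. Replicate numbers come from the titles and do not pair samples across diets. Replicates differed by 19.2 or more in chi-square per gene, and none was counted as a copy. Standard errors and SDs include the spread between libraries, while limits of detection cover counting error only.

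Identity, 50-base and 100-base windows were computed from GENCODE M21 transcripts (Biopython 1.88), and promoters come from RefSeq. Alternatives were RLE scaling, library size only, scaling without Mup rows, no filter, DESeq2 1.42.0, limma-voom, a replicate block and leaving out each library. The members and lists were chosen with earlier results of these data known. Named genes are the members, other Mup rows with at least 10 counts, the 4 genes of each list with the smallest p, genes needed to state small counts, 11 genes fixed by name, and the genes most and least like the summed Mup level; some genes under this rule are not reported here.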

Additional observations from a re-analysis of the deposited data

How the results depend on the processing

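Counts of calls moved most, and in many settings. With library size alone, which shifted the median of all genes by 0.27, 200 genes, 0 of the growth hormone list, 1 secreted protein and 1 member were called lower, and 3 flanking genes higher. Scaling without the Mup rows left 1 secreted protein. With no filter, 0 female-biased genes were higher, 1 secreted protein and 0 members lower. DESeq2 called lower 974 genes, 5 of the growth hormone list, 5 transcription factors, 5 male-biased and 2 female-biased genes, 4 lipocalins, 8 secreted proteins, 3 flanking genes and 1 other Mup row. Limma-voom called lower 0, 1 and 1 of the growth hormone list, the secreted proteins and the members. The replicate numbers did not pair the samples (correlations of deviations -0.25, -0.17 and 0.03); with the replicate block 961 genes were higher and 282 lower, with 0 of the growth hormone list, 1 male-biased gene, 0 secreted proteins and 0 members lower.

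When each library was left out in turn, 4 to 1664 genes were higher and 2 to 772 lower. The growth hormone list had 0 to 2 higher and 0 to 2 lower, transcription factors 0 to 1 lower, male-biased genes 0 to 3 lower, female-biased genes 0 to 2 higher and 0 to 1 lower, lipocalins 0 to 1 higher and 0 to 2 lower, secreted proteins 0 to 4 lower, flanking genes 0 to 1 higher, members 0 to 1 lower and other Mup rows 0 to 1 lower. Log2 fold changes ranged over -1.24 to 0.13 for Mup8, -3.11 to 0.55 for Mup9 and -1.94 to 0.21 for Mup14, reversed without chow replicate 2. The cause of these moves was not tested. Directions of the Mup1, Mup7, Mup12, Mup3 and Mup20 differences and of the central sum held in all settings tried. Depth limits Mup2, with 12 counts over the chow libraries. The central copies had 44 counts in HFHS replicate 2, which held the most gene counts of the 6 libraries.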
